A study of Mus musculus with 6 samples.

Results

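Ndnf and the collagen VIII chains Col8a1 and Col8a2 are 3 genes for secreted proteins, described here in endothelial cells of the mouse cerebellum with and without the Wnt receptor Frizzled4. The members are every probe set (a group of short probes on the array that reads 1 transcript) that the platform annotation assigns to 1 of these genes alone. They came to 6 of the 45037 probe sets tested, namely 2 for Ndnf, 3 for Col8a1 and 1 for Col8a2, and to 3 of 18193 named genes. Ndnf and Col8a2 were chosen by their difference between Frizzled4-null and wild-type cells on these same arrays, where both ranked among the most lowered genes, and Col8a1 because it encodes the other collagen VIII chain. The genotype differences of the members are therefore given as a description, and no test supports them.

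The cells were captured from the cerebellum at postnatal day 16 with magnetic beads carrying an antibody to PECAM, an adhesion molecule on the endothelial surface. The groups were Fz4-/- mice, 3 preparations, and wild type mice, 3 preparations, both of mixed gender on a C57Bl6/129 mixed background. Each preparation was hybridised to 1 Affymetrix 3' array, and all values are log2 RMA expression. Neither the design of the Fz4 allele nor whether a preparation pooled several animals is stated in the labels. P-values therefore cover only the spread among these preparations, which may be technical. The comparison addressed the lasting effect of lost Frizzled4 signalling on the endothelial transcriptome.

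Ndnf encodes a secreted glycoprotein with fibronectin type III domains, known for supporting the growth and survival of neurons and for acting on endothelial cells. Collagen VIII is a short-chain, non-fibrillar collagen. Its alpha1 and alpha2 chains, encoded by Col8a1 and Col8a2, assemble into trimers through a C-terminal C1q-type domain, and the trimers form the hexagonal lattice known from the basement membrane of the corneal endothelium. Frizzled4 carries Norrin and Wnt signals to beta-catenin in brain and retinal endothelium, a pathway known for its part in the blood-brain barrier.

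The genes lie on different chromosomes. In the RefSeq annotation of GRCm38.p6, Ndnf spans 65671611 to 65712323 of chromosome 6, Col8a1 spans 57624256 to 57754737 of chromosome 16, and Col8a2 spans 126286794 to 126314330 of chromosome 4. The array's gene identifiers matched that annotation for all 3 genes, while the labels do not place the probe sets within the genes.

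The promoters of both collagen VIII chains are shown because these chains can share a trimer and both read lower in the null arrays. RefSeq windows matched Col8a1 and Col8a2, and not Ndnf. The sequences are the 250 bases before the start of each gene, from RefSeq on GRCm38.p6, for Col8a2 at chr4:126286544-126286793 on the plus strand and for Col8a1 at chr16:57754738-57754987 on the minus strand. Capitals mark the letters GGGCGG on either strand (CCGCCC as printed where the match is on the opposite strand), known as the GC box of Sp and Klf factors, and the letters ATAAAA.
Col8a2 promoter: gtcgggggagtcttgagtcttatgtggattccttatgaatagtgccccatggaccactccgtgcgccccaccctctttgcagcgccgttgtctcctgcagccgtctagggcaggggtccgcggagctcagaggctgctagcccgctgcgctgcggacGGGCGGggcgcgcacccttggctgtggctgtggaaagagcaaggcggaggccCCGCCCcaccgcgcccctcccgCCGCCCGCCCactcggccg
Col8a1 promoter: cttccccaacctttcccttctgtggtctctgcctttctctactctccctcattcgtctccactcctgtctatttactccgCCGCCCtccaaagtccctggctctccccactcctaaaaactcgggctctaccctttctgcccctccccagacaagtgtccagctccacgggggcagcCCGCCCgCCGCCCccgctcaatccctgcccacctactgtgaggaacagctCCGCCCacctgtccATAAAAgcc

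Each promoter held 4 GC boxes. At least 1 was in 32.7% of the 32851 RefSeq promoter windows of this length, and the share with 4 was not counted. Of the 4 in Col8a2, the pair nearest the start overlap. Col8a2 was the richer of the promoters in G and C, with 70.0% of its bases and 24 CG pairs, against 60.8% and 10 CG pairs for Col8a1 and medians of 52.4% and 6 over all windows. The letters ATAAAA began 9 bases before the start of Col8a1 and were not in the Col8a2 window, and 17.0% of windows held them. The TCF/LEF letters CTTTGAA and CTTTGAT, the Sox letters AACAAT and the TATA box TATAAA, searched on both strands, were in neither promoter, and were in 4.46%, 3.21%, 9.42% and 12.4% of windows. A match here is a match of letters only.

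Fzd4, the targeted gene, checked the labels. Its brightest probe set read 10.20 to 10.88 in the wild-type arrays and 3.04 to 4.03 in the null arrays, and passed in limma (log2 difference -6.94, adjusted p = 0.00965, and adjusted p = 0.127 with the replicate number as a block). Over all probe sets, 5 passed an adjusted p of 0.05, or 0.0111%, and with the block 0 passed, with 3917 at an unadjusted limma p under 0.05. Array medians lay between 5.52 and 5.58 and lower quartiles between 3.46 and 3.64, values that serve below as a scale for how dim a probe set was.

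Ndnf read lower on every null array, yet remained above the middle of the array range there. Its brighter probe set, 1460465_at, read 9.10, 9.46 and 9.91 in wild-type replicates 1 to 3 and 6.92, 6.92 and 6.72 in null replicates 1 to 3. Every null array lay below every wild-type array, with a gap of 2.18 between the lowest wild-type and the highest null value. The means were 9.49 ± 0.40 (SD, n = 3) and 6.85 ± 0.12, a log2 difference of -2.64 (SE 0.24), or 6.22-fold lower. The null arrays lay closer together than the wild-type arrays, and above all 6 array medians.

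The dimmer Ndnf probe set, 1453225_at, also read lower on every null array, at a much lower level. The wild-type arrays read 4.70, 3.70 and 4.97 and the null arrays 2.37, 2.26 and 1.92, again without overlap. All 3 null values lay below the lower quartile of their arrays, so the difference of -2.28 (SE 0.35) may be understated. This was the only member probe set whose mean over the arrays was below the median of all probe sets, and the other 5 would pass a filter at that level.

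Col8a2, the alpha2 chain, has 1 probe set, 1434667_at. Wild-type replicates 1 to 3 read 6.92, 6.89 and 7.19 and null replicates 1 to 3 read 4.58, 5.18 and 4.56, with a gap of 1.71 between the groups. In wild type all 3 values were above the array medians, and in the null arrays all 3 were between the lower quartile and the median. The null mean was 4.77 ± 0.35 (SD, n = 3) and the wild-type SD was 0.16, and the log2 difference was -2.23 (SE 0.23), or 4.68-fold lower. With a single probe set there is no second reading of this chain on the array.

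Col8a1, the alpha1 chain, differed less and less evenly. Its brightest probe set, 1455627_at, read 8.16, 8.44 and 8.26 on the wild-type arrays and 7.88, 7.41 and 6.17 on the null arrays. The groups did not overlap, but the gap was 0.28, and the null arrays were spread from just under wild type to far below it. The means were 8.29 ± 0.14 (SD, n = 3) and 7.16 ± 0.88, a log2 difference of -1.13 (SE 0.42), or 2.20-fold lower. Without null replicate 3 the difference was -0.64, and without null replicate 1 it was -1.50.

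The other Col8a1 probe sets gave differences close to that value with another spread. Probe set 1418440_at read 7.09, 7.22 and 7.62 on the wild-type and 6.47, 6.36 and 6.32 on the null arrays, a difference of -0.93 (SE 0.20) with no overlap and a null SD of 0.080 (n = 3). Probe set 1418441_at read 5.56, 6.51 and 7.13 on the wild-type and 5.76, 5.55 and 5.06 on the null arrays, a difference of -0.94 (SE 0.41), and its groups overlapped because null replicate 1 lay above wild-type replicate 1. That difference was -0.58 with wild-type replicate 3 left out, -1.36 with wild-type replicate 1 left out and -0.64 with array weights. The wide null spread of the brightest probe set was therefore not seen in 1418440_at. Across the 3 probe sets the order of the null arrays was the same, replicate 1 highest and replicate 3 lowest.

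**Figure D1:**
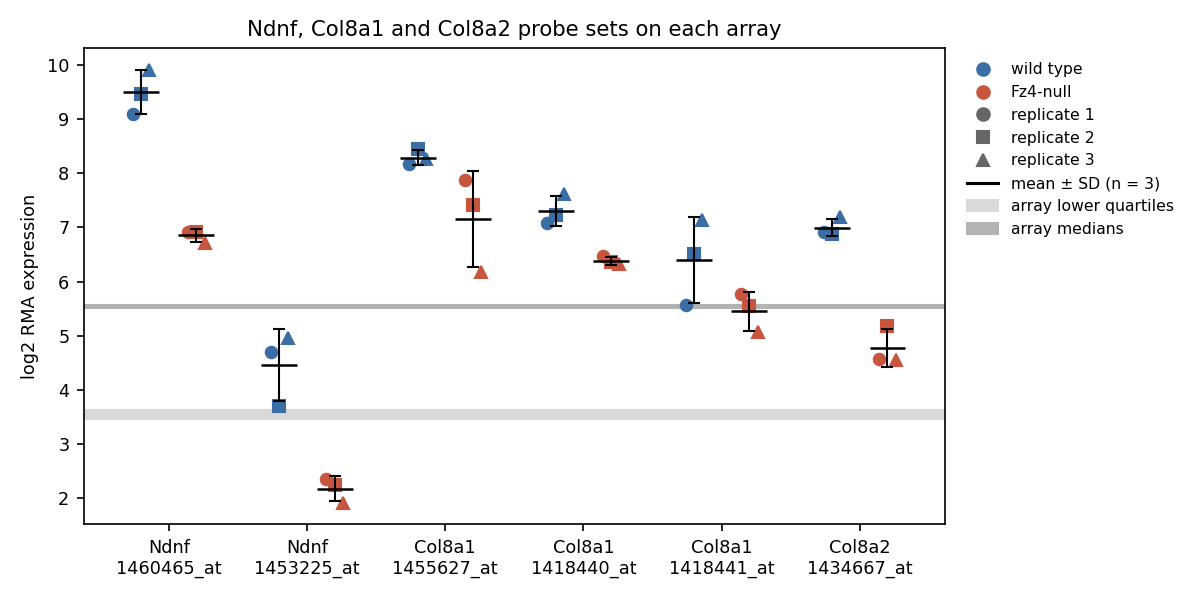
Log2 RMA expression of the 6 member probe sets on each array, with wild type in blue, Fz4-null in red, the replicate number as the marker shape, and bars for the mean ± SD (n = 3); grey bands give the range of array lower quartiles and medians. The Ndnf and Col8a2 groups are separated by gaps of 1.33 to 2.18, while the Col8a1 groups lie close or overlap.

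In all, 6 of 6 member probe sets read lower in the null arrays and 5 of 6 did not overlap between groups, where 5.18% of all probe sets had every null array below every wild-type array. Limma called 0 of 6 at an adjusted p of 0.05 and 5 at an unadjusted p under 0.05 on the lower side, where 2.37% of all probe sets lay, and an unmoderated statistic called 0 and 4. Since this contrast chose the members, nothing is read from those counts. Ranked by difference among 18193 genes, Ndnf was number 3 of those with the lowest values, between Slc7a3 (-3.26) and Slc4a10 (-2.52). Col8a2 was number 8, between Kcne2 (-2.24) and Eppk1 (-2.17), and Col8a1 was number 153, between Fmo1 (-1.14) and Stra6 (-1.13).

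By replicate number, the null array minus the wild-type array of the same number gave -2.18, -2.54 and -3.19 for Ndnf. The same subtraction gave -2.34, -1.71 and -2.63 for Col8a2, so that the arrays numbered 3 differed most in both genes. For the brightest Col8a1 probe set it gave -0.28, -1.04 and -2.09, a wider range than for either of the others. Leaving out 1 array at a time gave -2.83 to -2.43 for Ndnf, -2.43 to -2.12 for Col8a2 and -1.50 to -0.64 for Col8a1.

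**Figure D2:**
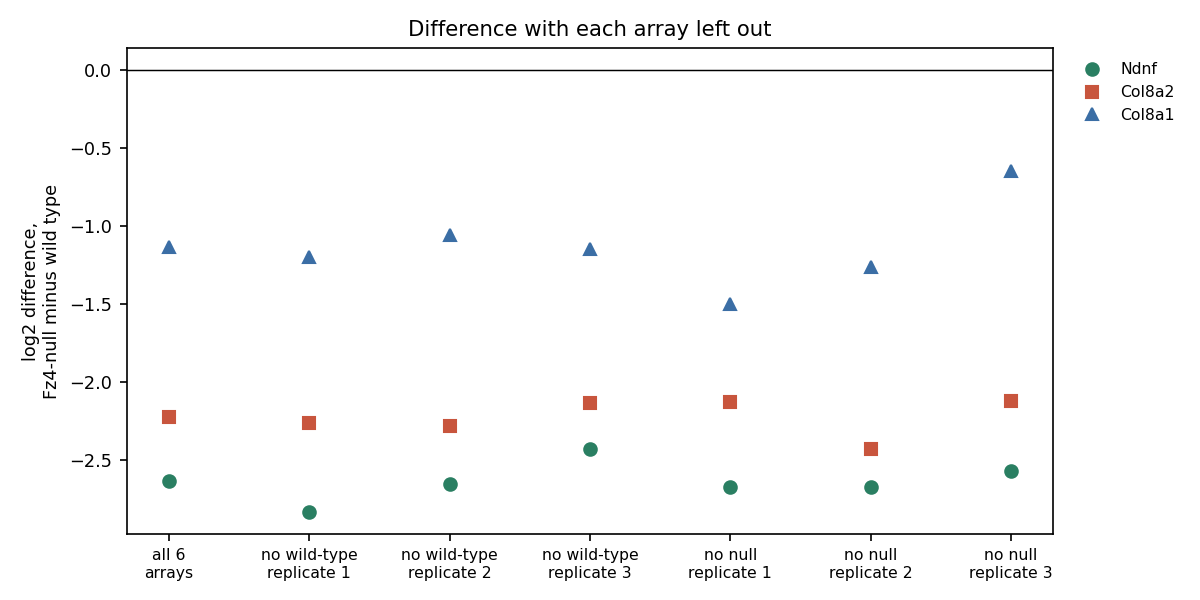
Log2 difference, Fz4-null minus wild type, of the brightest probe set of Ndnf, Col8a2 and Col8a1 with all 6 arrays and with each array left out. Ndnf stays between -2.83 and -2.43 and Col8a2 between -2.43 and -2.12, whereas Col8a1 goes from -1.50 to -0.64.

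Levels of other cell types varied between these arrays, and in bulk samples fewer cells of a type and less RNA per cell cannot be told apart. The captured cells carried the labelled identity, with the mean of 14 measured endothelial markers such as Pecam1 and Cdh5 at 11.46 to 11.58 in wild type and 11.65 to 11.75 in the null arrays. That mean was thus slightly higher on every null array. Of the 14, 11 had a higher null mean and 3 a lower one, where 9333 of 18193 genes had a higher one. Fibroblast and meningeal markers, among them genes for other matrix proteins, had a mean over 12 measured genes of 8.72 to 9.12 in wild type and of 6.37, 9.40 and 8.22 in null replicates 1 to 3. All 12 had a lower null mean, and null replicate 1 was the array far below the rest.

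Ndnf and Col8a2 did not follow null replicate 1 in this. That array read 6.92 for Ndnf against 6.92 and 6.72 on the other null arrays, and 4.58 for Col8a2 against 5.18 and 4.56. Col8a1 read highest there among the null arrays. Without null replicate 1 the differences were -2.67 for Ndnf, -2.13 for Col8a2 and -1.50 for Col8a1, while the mean difference of the fibroblast markers went from -0.88 to -0.07. Pericyte and smooth muscle markers (12 measured) went from -0.35 to 0.08, astrocyte and Bergmann glia markers (10) from -0.41 to 0.26, and microglia and macrophage markers (9) from -0.85 to -0.08 when the same array was left out. The part of RNA from fibroblasts or these other cell types in the member values was not tested.

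Choroid plexus markers, in contrast, had a lower mean on every null array than on any wild-type array. The mean of the 10 measured genes, which include the thyroid hormone carrier Ttr and the transcription factor Otx2, was 4.53 to 5.05 in the null arrays and 5.36 to 7.75 in wild type. All 10 had a lower null mean, and 6 had every null array below every wild-type array, where 4.95% of all genes did. Aqp1 and Kl read above their null means of 4.86 and 3.84 only on wild-type replicate 3. The highest list mean was on wild-type replicate 3, which also read highest for Ndnf and Col8a2. It read highest for the Col8a1 probe sets 1418440_at and 1418441_at as well, but not for the brightest Col8a1 probe set. Without that array the differences were -2.43 for Ndnf, -2.13 for Col8a2 and -1.15 for the brightest Col8a1 probe set. The other Col8a1 probe sets then differed by -0.77 (1418440_at) and -0.58 (1418441_at), against -0.93 and -0.94 with it. The choroid plexus markers differed by -0.77 without that array and by -1.51 with it. Only 3 of the 10 markers were above the median level, so dim genes weigh on that mean. Ttr, the brightest of them, read 12.54, 11.76 and 13.50 in wild-type replicates 1 to 3. It read 9.40, 10.52 and 10.45 in null replicates 1 to 3, a difference of -2.48. By replicate number the choroid plexus mean differed by -1.16, -0.32 and -3.06, beside -2.18, -2.54 and -3.19 for Ndnf and -2.34, -1.71 and -2.63 for Col8a2. The part of choroid plexus RNA in the member values was not tested.

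Inhibitory neurons and granule neurons, the other cell types checked, had marker means that overlapped between the groups. The 10 measured inhibitory neuron markers averaged 4.99 to 5.29 in the null arrays and 5.21 to 5.58 in wild type. The 9 measured granule neuron markers averaged 5.07 to 6.40 and 5.70 to 6.62. Only 3 of the 10 and 4 of the 9 were above the median level, so these means rest largely on dim genes.

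**Figure D3:**
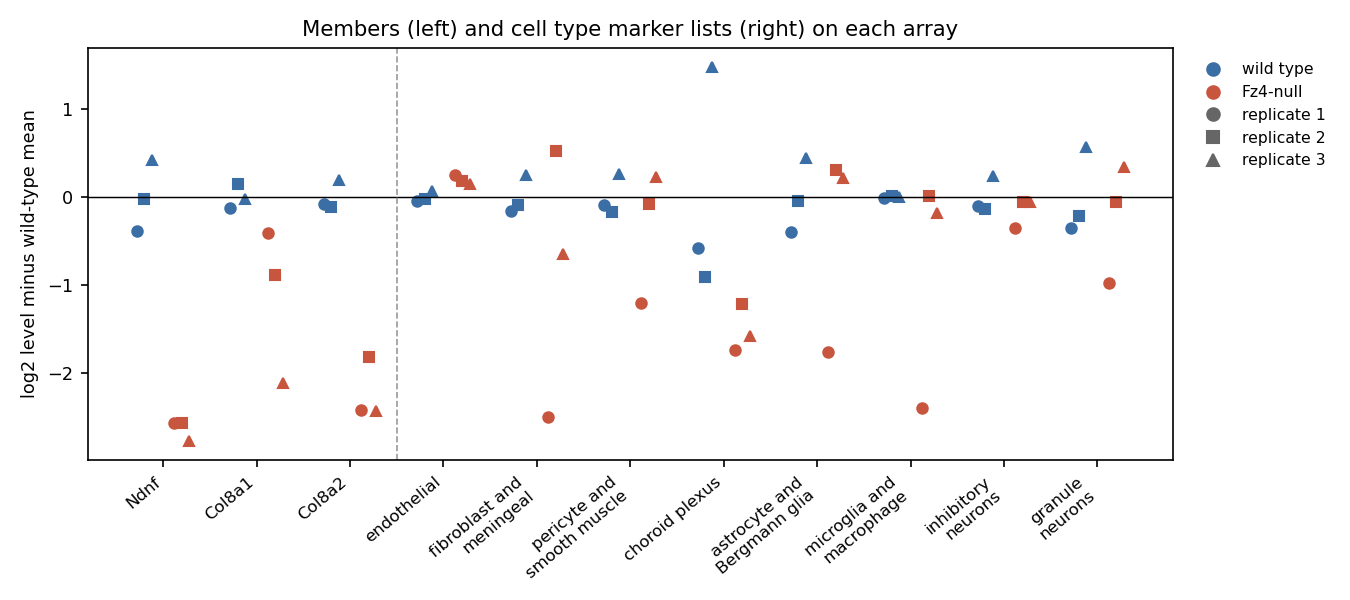
Log2 level minus the wild-type mean on each array, for the brightest probe set of Ndnf, Col8a1 and Col8a2 (left of the dashed line) and for the mean of 8 cell type marker lists (right of it), with wild type in blue, Fz4-null in red and the replicate number as the marker shape. Null replicate 1 is far below the other arrays for fibroblast, mural, glial and microglial markers but not for the members, while the choroid plexus mean is lower on all 3 null arrays.

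Among collagens, the chains of collagen VIII stood at the low end of the genotype differences. Since Col8a2 was chosen by this same difference, its place there is a description and not a result. With each gene read from its brightest probe set, 42 collagen chains were measured, and Col8a2 had the lowest difference and Col8a1 the third lowest, behind the cartilage collagen chain Col9a3 (-1.36, SE 0.59). Without null replicate 1, Col9a3 read -0.83 and Col8a1 -1.50, so their order turned, and without null replicate 3 Col8a1 read -0.64. The place of Col8a1 also rested on its brightest probe set. Its other probe sets, at -0.93 and -0.94, were less lowered than Col1a1 (-1.08), Col6a1 (-1.01), Col11a1 (-0.99) and Col1a2 (-0.99). Among the 40 other chains 0 passed in limma (lowest adjusted p = 0.885), where 0.0220% of all genes did, and 2 had an unadjusted p under 0.05, both higher in the null arrays, where 4.60% of all genes had such a p in either direction. Their median difference was -0.11, with 26 below 0 and 14 above, against a median of 0.008 over all genes. Without null replicate 1 their median was 0.03, and without null replicate 2 it was -0.31.

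Col13a1, a transmembrane collagen, stood at the other end. Its values were 5.44, 5.53 and 6.12 on the wild-type and 7.25, 8.73 and 6.81 on the null arrays, a log2 difference of 1.90 (SE 0.50) that did not pass in limma (adjusted p = 0.885). Col14a1, a collagen that binds fibrils, differed by 0.97 (SE 0.36) from a low level. Col10a1, the other short-chain collagen and the closest relative of collagen VIII, had means of 3.55 ± 0.19 (SD, n = 3) for wild type and 3.08 ± 0.25 for null arrays, near the lower quartiles. It was the 1 chain of 40 with every null array below every wild-type array, as in 4.95% of all genes, and 2 of 40 had every null array above, as in 4.59%.

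The fibrillar chains typical of fibroblasts lay nearer to 0 without null replicate 1, whereas Col8a2 hardly moved and Col8a1 lay farther from 0. Col1a1 and Col1a2, the chains of collagen I, differed by -1.08 and -0.99, and by -0.41 and -0.36 without that array. Col3a1, the chain of collagen III, went from -0.82 to -0.14, while Col8a2 went from -2.23 to -2.13 and Col8a1 from -1.13 to -1.50. The main basement membrane chains Col4a1 and Col4a2, which are abundant in endothelium, read 0.18 (SE 0.24) and 0.12 (SE 0.24) above wild type. The other collagen IV chains read below it, each with overlapping groups. They were Col4a5 (-0.86, SE 0.50), Col4a6 (-0.73, SE 0.74), Col4a4 (-0.36, SE 0.59) and Col4a3 (-0.06, SE 0.33). Col11a1, a minor fibrillar chain, read -0.99 (SE 0.53) with overlapping groups, and -0.48 without null replicate 1. The part of fibroblast RNA in the values of any of these chains was not tested.

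**Figure D4:**
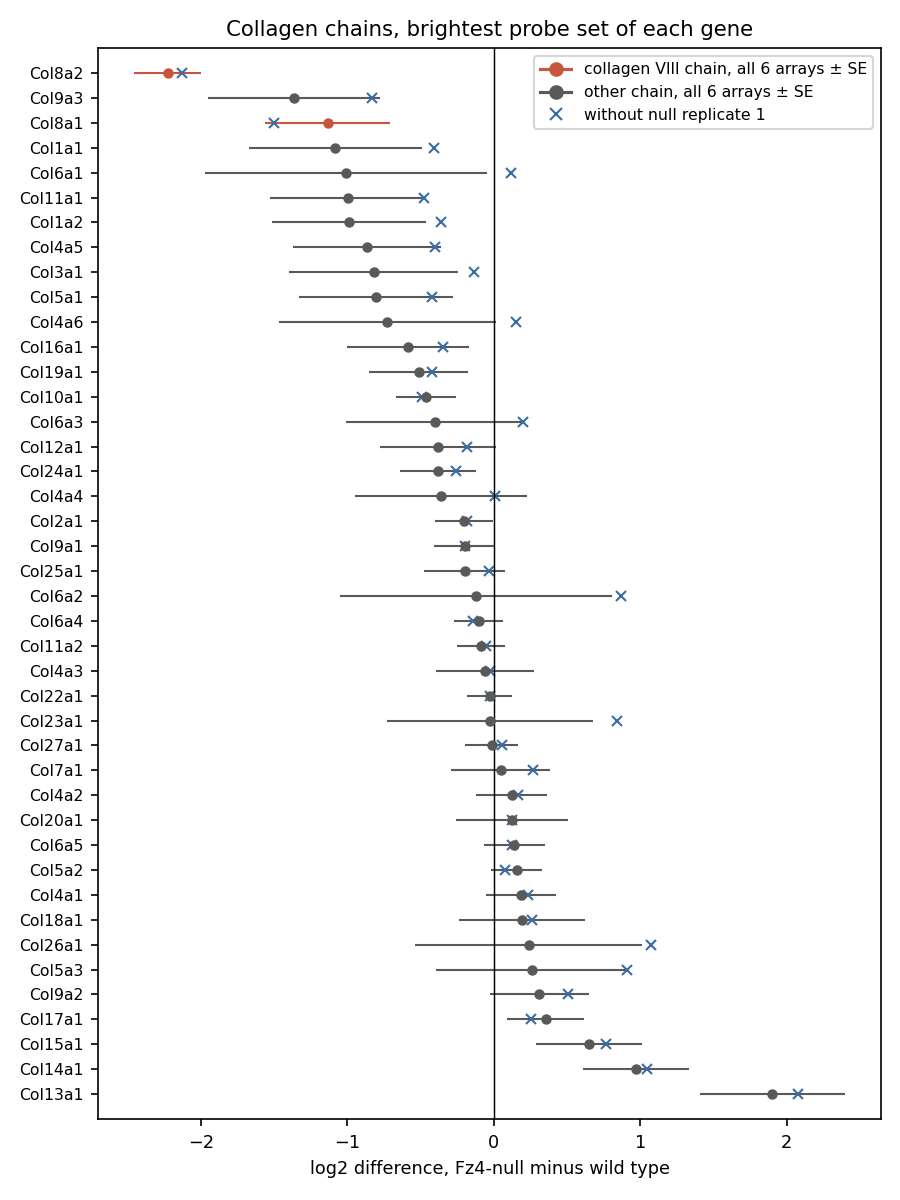
Log2 difference, Fz4-null minus wild type, with its moderated SE for 42 collagen chains, each from its brightest probe set, in order of the difference; red marks collagen VIII, and crosses give the difference without null replicate 1. Col8a2 lies at -2.23 with that array and at -2.13 without it, while Col1a1, Col1a2 and Col3a1 move towards 0.

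Genes for other proteins with the C1q-type domain of collagen VIII differed in both directions. Of 25 measured, 0 passed in limma (lowest adjusted p = 0.441), and 2 had an unadjusted p under 0.05, 1 in each direction. Over all genes 4.60% had such a p in either direction, a share to set beside the lists below as well. C1qtnf9, a secreted relative of adiponectin, read 5.16, 5.60 and 6.12 on the wild-type and 7.49, 7.23 and 7.99 on the null arrays, a difference of 1.94 (SE 0.31). Mmrn1, the matrix and platelet protein multimerin, had means of 7.54 ± 0.29 (SD, n = 3) for wild type and 6.56 ± 0.43 for null arrays, a difference of -0.98 (SE 0.28). C1qtnf4 differed by -0.59 near the lower quartiles. The median of the list was -0.30, and -0.02 without null replicate 1. It was 0.07 among members above the median level.

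Genes for collagen processing showed little difference as a group. Of 25 measured genes for hydroxylation, folding, secretion, propeptide cleavage and cross-linking, 0 passed in limma and 1 had an unadjusted p under 0.05, Pcolce2, an enhancer of procollagen cleavage (-0.78, SE 0.28, from 3.96 ± 0.49, SD, n = 3). Loxl1, a cross-linking oxidase, differed by -0.60 (SE 0.28) and Plod2, a lysyl hydroxylase, by -0.57 (SE 0.27). The groups did not overlap in any of these 3, which were named for their low p. They were the 3 of 25 with every null array below every wild-type array, as in 4.95% of all genes. The median of the list was -0.01, or -0.13 without null replicate 3.

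Collagen receptors and elastic fibre genes gave no limma call either. Of 6 measured receptors 1 had an unadjusted p under 0.05, the discoidin receptor Ddr2 (-0.92, SE 0.35), followed by Ddr1 (-0.44, SE 0.26) and the integrin subunit Itga10 (-1.18, SE 0.77), and the median was -0.24, or -0.14 without null replicate 1. Of 13 measured elastic fibre and microfibril genes 0 had an unadjusted p under 0.05. Mfap4, a microfibril-associated protein, read 7.65, 7.01 and 8.54 on the wild-type and 4.21, 5.98 and 7.37 on the null arrays, a difference of -1.88 (SE 0.79) that was widest on null replicate 1. The latent TGF-beta binding proteins Ltbp3 (0.44, SE 0.19) and Ltbp1 (-0.43, SE 0.18) differed in opposite directions. The median of the list was 0.04, but went to -0.18 when wild-type replicate 1 was left out and to 0.22 when wild-type replicate 3 was.

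The genes checked around Ndnf were FGF ligands and receptors, the Akt kinases, endothelial nitric oxide synthase and the adiponectin receptors. Of 18 measured, 0 passed in limma and 0 had an unadjusted p under 0.05, with a median difference of 0.07. Fgf1, a growth factor, differed by -0.75 (SE 0.35), its receptor Fgfr3 by 0.49 (SE 0.24) and Adipor2 by 0.23 (SE 0.22). Fgf1, Fgfr3 and Adipor2 had overlapping groups. Of the 18 genes, 1 had every null array above every wild-type array, as in 4.59% of all genes, and 0 had every null array below.

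Genes with the profile most like each member were found by the root-mean-square distance between log2 values over the 6 arrays, each gene centred on its own mean, among the genes above the median level (10925 for each member). This is a description that the genotype difference dominates, and both Ndnf and Col8a2 were chosen by that difference. For Ndnf the nearest was Col8a2, at 0.32 log2 units. It was followed by the monoamine-synthesis enzyme Ddc (0.39), the choroid plexus marker Ttr (0.58), the immunoglobulin-family gene Igsf5 (0.58) and the Wnt-inactivating enzyme Notum (0.59).

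For Col8a2 the nearest was Ddc, at 0.19 log2 units, then Ndnf (0.32), the carbonic anhydrase Car2 (0.44), the thyroid hormone deiodinase Dio2 (0.49) and the matrix protein Frem1 (0.52). Ndnf and Col8a2 were thus near each other in both directions, as number 1 and number 2. Differences in log2 were -2.03 (SE 0.18) for Ddc, -1.42 (SE 0.20) for Car2, -1.32 (SE 0.30) for Dio2 and -1.47 (SE 0.42) for Frem1. None of these passed in limma.

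For Col8a1, which differed less between the genotypes, neither other member was among the nearest. Its nearest genes were the homeobox gene Pknox2 (0.30), Klhl8 (0.30), the mitochondrial gene Tfb1m (0.34), Mmrn1 (0.35) and the scaffold gene Iqgap2 (0.36), with differences from -0.98 to -0.46. Col8a2 stood at 0.75 from it, number 2685 of 10925, and Ndnf at 0.90, number 6581. Counted from the other side, Col8a1 was number 75 from Col8a2 and number 50 from Ndnf.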

How the data were processed

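Per the submitters' processing notes the authors used RMA (background correction, normalization across arrays, 1 summary per probe set) and deposited log2 values. No version of it is named there. Differences of dim genes can be compressed by RMA. Of 45101 probe sets 64 controls were left out. The platform annotation named genes, from 34945 probe sets with 1 symbol, each gene by its brightest probe set. The test was lmFit and eBayes of limma 3.58.1 (R 4.3.3), two-sided, with Benjamini-Hochberg adjustment over 45037 probe sets at 0.05, after a check on simulated data. Depth does not apply to arrays, and their number limits precision. Exact permutation of 3 against 3 cannot go below 0.1.

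Members and lists were chosen with earlier results of these data known. Named were all member probe sets, Fzd4, the list genes with the lowest p (3 a list, 6 for collagens) and 5 genes of nearest profile per member. Slc7a3, Slc4a10, Kcne2, Eppk1, Fmo1, Stra6, Col1a1, Col3a1, Col4a1 to Col4a6 and Col6a1 were chosen after their values were seen. Same-numbered arrays had deviations correlated at 0.244, 0.303 and 0.574, above the minimum of 0.1 for pairing, but so did null 1 with wild-type 2 (0.124) and null 2 with wild-type 1 (0.262). Alternatives were other normalizations, variance models and probe filters, array weights, the block, and each array left out.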

Additional observations from a re-analysis of the deposited data

How the results depend on the processing

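The number of probe sets past the threshold, 5 in limma with all arrays and no block, was 21 with array weights, 8 at an adjusted p of 0.1, 0 with an unmoderated statistic (2126 at an unadjusted p under 0.05), 0 with the replicate number as a block and 0 to 2 when 1 array was left out (1329 to 3510 at an unadjusted p under 0.05). The other settings gave 4 to 6. Of the 6 member probe sets, array weights called 2 (Ndnf, adjusted p = 0.0303, and Col8a2, adjusted p = 0.0463) and the limit of 0.1 called 1 (Ndnf, adjusted p = 0.0834). Over the settings tried, the adjusted p ranged from 0.0303 to 0.696 for Ndnf and from 0.0463 to 0.696 for Col8a2. The cause of these shifts was not tested. The differences of Ndnf, Col8a2 and Col8a1 kept their sign and moved by less than 1 SD between replicates under the alternatives that could change them (11, 10 and 11 of 15), with -2.46 for Ndnf as the mean of its probe sets. The replicate block, the variance trend and the probe filters cannot move these differences. The matrix and signalling lists gave 0 calls under each of 14 alternatives. Of their 126 genes, 6 had an unadjusted limma p under 0.05 without the block and 21 with it. Over all 45037 probe sets the same counts were 2008 without and 3917 with the block. The dimmer Ndnf probe set lies near background in null cells, which limits its size.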
